A study of Homo sapiens with 2 samples.

Results

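The genes described here are 10 genes of antioxidant defence and iron storage (FTL, FTH1, SOD1, PRDX1, PRDX2, TXN, GPX4, NQO1, HMOX1 and GCLM), of 33538 Ensembl genes in the count table. Their rule is a list of names, each matched to 1 Ensembl row, with no limit on a measured value. SH-SY5Y (SY5Y) is an established human neuroblastoma cell line. The cells were not treated and not synchronized, and were grown in 2 flasks that had been split from the same culture. The cells of each flask carried a hashtag antibody of their own (hashtag 1 for SplitA, hashtag 2 for SplitB) and were sequenced as 1 pool in 1 mRNA library; the hashtag counts alone tell the flasks apart. Of 2879 cells, 1179 were singlets of SplitA and 1605 of SplitB. The other 95 could not be assigned to 1 flask by their hashtag counts and were left out. Levels and spread are given for the singlets with at least 1000 genes with a UMI (unique molecular identifier, 1 tag per captured RNA molecule), 899 in SplitA and 1195 in SplitB.

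Ferritin is the cellular store of iron, a shell built from heavy (FTH1) and light (FTL) chains. The heavy chain oxidises iron as it enters and the light chain helps the mineral core to form, and both mRNAs are known for an iron-responsive element near their 5′ end, to which iron regulatory proteins bind when iron is scarce. Superoxide is converted to hydrogen peroxide by SOD1, the cytosolic copper and zinc superoxide dismutase, and peroxides are reduced by the peroxiredoxins (PRDX1 and PRDX2, which draw electrons from the thioredoxin TXN) and by GPX4, the glutathione peroxidase that acts on lipid peroxides in membranes and guards cells against ferroptosis. NQO1, HMOX1 and GCLM encode a quinone reductase, the inducible heme oxygenase and the modifier subunit of the enzyme that makes the precursor of glutathione. They are textbook targets of the transcription factor NRF2, which binds antioxidant response elements (ARE).

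The start regions of 6 of the 10 genes (FTL, PRDX2, TXN, GPX4, NQO1 and GCLM) were in the table of RefSeq sequences (GRCh38.p14; 250 bases before to 50 bases after each annotated start), while FTH1, SOD1, PRDX1 and HMOX1 were not. Both elements named above can be seen in them, 1 in FTL and 1 in GCLM, and these stretches are printed because they mark the regulation for which the ferritin and the inducible genes are known. The capitals mark the loop of the iron-responsive element in FTL (CAGTGN after a C and any 5 letters, searched on the transcribed strand in the first 50 bases after the start) and the ARE core in GCLM (TGACNNNGC, searched on both strands of the 300 bases, and found in GCLM on the strand opposite to the printed one). The FTL stretch is at chr19:48965329-48965358 on the plus strand and the GCLM stretch at chr1:93909445-93909474 on the minus strand.
FTL: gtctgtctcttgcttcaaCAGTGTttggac
GCLM: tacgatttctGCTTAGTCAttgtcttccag
The ARE core was present in 13.3% of all 35116 start regions in the table and the loop pattern in 1.67%. Among the 6 genes, GCLM was the only one with the ARE core and FTL the only one with the loop pattern. A match describes these letters and not a bound site, and elements outside these regions were not searched.

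The genes fell into 3 tiers of abundance that differed by far more than the flasks did. Levels are counts per 1000000 nuclear UMIs (CPM), where nuclear UMIs are all UMIs except those of 13 protein-coding genes that the mitochondrion itself encodes. A 3′ UMI counts a molecule and not a length, so gene length does not enter where levels of different genes are set side by side. Differences between genes in how well their RNA is captured were not measured. FTH1 (ENSG00000167996, GRCh38, chr11:61959718-61967634, minus strand) had the highest level of the 10, at 3774 CPM (95% Poisson interval 3722 to 3827) in SplitA and 3676 (3632 to 3720) in SplitB. FTL (ENSG00000087086, chr19:48965309-48966879, plus strand) followed at 2630 (2587 to 2674) in SplitA and 2590 (2554 to 2628) in SplitB. By UMIs FTH1 ranked 57 among nuclear genes in both flasks, and FTL ranked 78 in SplitA and 80 in SplitB. Both ferritin chains stood above the other 8 genes, and the ratio of FTH1 to FTL UMIs was 1.44 (exact 95% interval 1.40 to 1.47) in SplitA and 1.42 (1.39 to 1.45) in SplitB.

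The second tier held GPX4, TXN, SOD1, PRDX2 and PRDX1. GPX4 (ENSG00000167468, chr19:1103982-1106791, plus strand) was at 522 CPM (503 to 542) in SplitA and 544 (527 to 561) in SplitB. TXN (ENSG00000136810, chr9:110243810-110256507, minus strand) was at 361 (345 to 377) and 388 (374 to 402), and SOD1 (ENSG00000142168, chr21:31659666-31668931, plus strand) at 362 (346 to 378) and 352 (338 to 366). The order of these neighbours was not fixed, since TXN was level with SOD1 in SplitA and above it in SplitB. PRDX2 (ENSG00000167815, chr19:12796820-12801800, minus strand) was at 322 (307 to 337) and 323 (310 to 337) and PRDX1 (ENSG00000117450, chr1:45510914-45542732, minus strand) at 181 (170 to 193) and 177 (167 to 186). PRDX2 thus lay below SOD1 in both flasks with intervals that did not overlap, while PRDX1 lay clear of all others.

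The third tier was made of NQO1, GCLM and HMOX1, which were close to the limit of detection. NQO1 (ENSG00000181019, chr16:69706996-69726668, minus strand) had 31 UMIs in SplitA and 29 in SplitB, which is 5.84 CPM (3.96 to 8.28) and 3.97 (2.66 to 5.70). GCLM (ENSG00000023909, chr1:93885199-93909456, minus strand) had 31 and 50 UMIs, or 5.84 (3.96 to 8.28) and 6.84 (5.08 to 9.02) CPM. HMOX1 (ENSG00000100292, chr22:35380361-35394214, plus strand) had 4 and 8 UMIs, or 0.753 (0.205 to 1.93) and 1.10 (0.473 to 2.16) CPM. NQO1 and GCLM could not be told apart in level, and HMOX1 was below both in each flask. All intervals and limits given here cover counting error only.

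**Figure D1:**
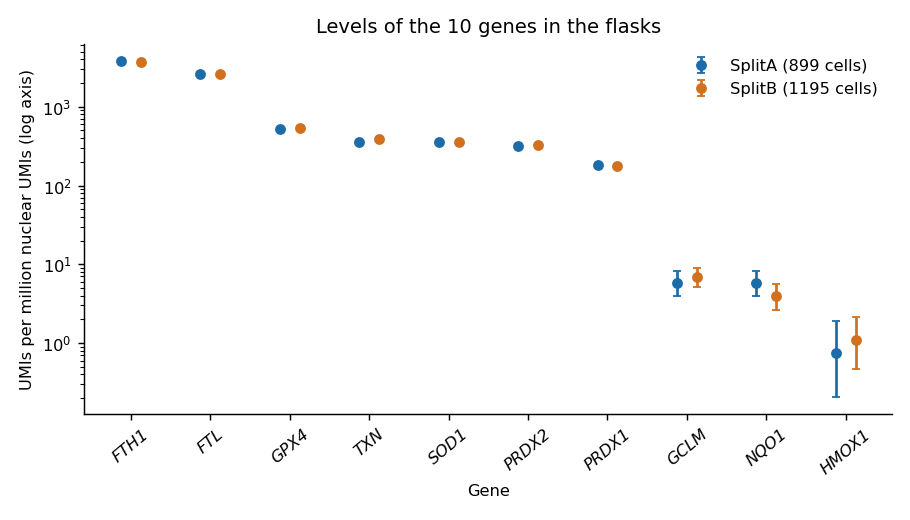
Level of each gene in SplitA (899 cells) and SplitB (1195 cells), in CPM on a log axis; bars are exact 95% Poisson intervals, hidden by the points where narrow. FTH1 and FTL lie at 2590 or more, the 5 genes of the second tier between 177 and 544, and GCLM, NQO1 and HMOX1 below 7.

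A UMI of FTH1 was found in 98.4% of cells (exact 95% binomial interval 97.4 to 99.1) of SplitA and 98.8% (98.0 to 99.4) of SplitB, and a UMI of FTL in 97.4% (96.2 to 98.4) and 97.2% (96.1 to 98.1). The share was 86.2% and 89.4% for GPX4, 82.9% and 84.6% for SOD1, 82.6% in both flasks for TXN, 79.3% and 78.9% for PRDX2 and 62.1% and 60.8% for PRDX1, in the order of their levels except that SOD1 was found in about as many cells as TXN. NQO1 was found in 30 cells of SplitA and 28 of SplitB, GCLM in 31 and 48, and HMOX1 in 4 and 5. At these counts NQO1, GCLM and HMOX1 say little about single cells. The part of free RNA in them was not tested, as the library held no cell type that should lack them. Of the 9 cells with an HMOX1 UMI, 8 had a single UMI. The exception, a cell of SplitB with 6615 UMIs, had 4 UMIs of HMOX1 and 3 of GCLM, which were the highest UMI counts of both genes in any cell kept. GCLM and NQO1 shared 4 of the 79 and 58 cells in which they were found.

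SplitA and SplitB were cultures of the same kind, so the difference between them measures the spread between flasks and no test was made with 1 flask on each side. Of the 7 genes found in at least 10% of cells, 0 had an absolute log2 ratio of 0.25 or more, against 9.41% of 5614 genes. TXN had the largest of the 7 differences, with a log2 ratio of SplitA to SplitB of -0.10 (exact 95% interval -0.19 to -0.02). FTH1 was next to differ beyond counting error, at 0.04 (0.01 to 0.06). These intervals leave out the variation between cells, which for FTH1 was larger than counting alone gives, so they are too narrow. A single cell of SplitA also held 193 of the 20051 FTH1 UMIs of that flask, and the ratio without it was not computed. The difference in FTH1 is therefore uncertain. For FTL, SOD1, PRDX1, PRDX2 and GPX4 the interval held 0, with bounds from -0.13 to 0.16. NQO1 (0.56, -0.22 to 1.34), HMOX1 (-0.54, -2.72 to 1.36) and GCLM (-0.23, -0.93 to 0.44) were too rare for a difference of this size to be detectable.

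Cells of 1 flask varied in these genes by more than counting alone gives, and which genes varied most depended on the measure. The ferritin chains had the largest excess over counting, which is easier to see at a higher level. Relative to the level the peroxiredoxins varied most, and FTH1 lay below the median of all genes measured. Per 10000 nuclear UMIs of a cell, FTH1 ran from 18.9 at the 10th percentile through a median of 36.0 to 56.5 at the 90th percentile in SplitA, and from 17.7 through 35.4 to 57.2 in SplitB. FTL ran from 9.96 through 23.9 to 40.7 and from 9.44 through 23.4 to 39.6. From the 10th to the 90th percentile this is a 2.99-fold and 3.24-fold range for FTH1 and a 4.09-fold and 4.20-fold range for FTL, so the light chain was the more variable of the 2 in both flasks. The other 5 genes of the first tiers were at 0 at the 10th percentile, with medians between 1.51 (PRDX1, SplitA) and 4.88 (GPX4, SplitB).

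**Figure D2:**
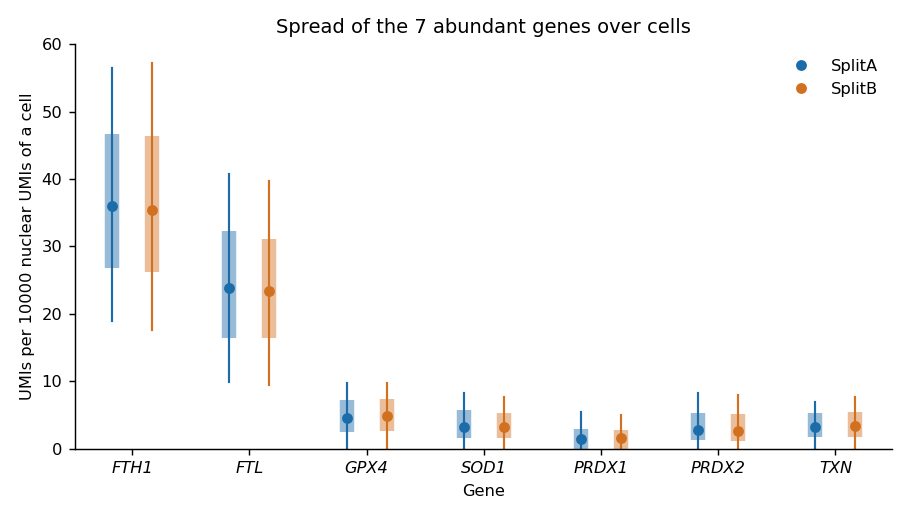
UMIs per 10000 nuclear UMIs of a cell for the 7 genes with an average of at least 1 UMI per cell, in SplitA and SplitB; points are medians over cells, thick bars run from the 25th to the 75th percentile and thin lines from the 10th to the 90th. The ranges of the flasks lie side by side for every gene shown, and FTH1 and FTL reach 90th percentiles of 39.6 to 57.2 while the other 5 stay below 10.

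The excess over counting was measured with a spread index, the average squared distance of a cell's count from the count that its nuclear UMIs and the flask's level give, divided by the latter, which is 1 where only counting acts. The index was over 1.2 in both flasks for 5 of the 7 genes with an average of at least 0.1 UMI per cell, against 18.5% of 5500 genes, and a higher level makes any excess easier to see. FTL had an index of 4.37 in SplitA and 4.79 in SplitB (ranked 30 and 26 of 5500) and FTH1 of 4.11 and 3.37 (ranked 35 and 60). PRDX1 was at 1.77 and 1.90, PRDX2 at 1.81 and 1.82 and SOD1 at 1.47 and 1.36. GPX4 passed in SplitA only (1.24), where 1.199 was reached in SplitB, and TXN in SplitB only (1.23, against 1.12 in SplitA). With cells thinned to 2000 nuclear UMIs the index was over 1.2 in both flasks for 3 genes, FTL, FTH1 and PRDX2. PRDX1 (1.09 in the lower flask) and SOD1 (1.10) no longer passed, at counts per cell that thinning had lowered. Thinning also left out the 39 cells of SplitA and 56 of SplitB under 2000 nuclear UMIs. The parts of the lower counts and of the missing cells were not tested.

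Expressed as a coefficient of variation beyond counting, which does not grow with the level, the order changed. PRDX1 (56.0% in SplitA and 67.3% in SplitB) and PRDX2 (54.4% and 58.0%) were the most variable, followed by FTL (45.6% and 46.3%), SOD1 (43.0% and 36.2%), FTH1 (37.5% and 30.0%), TXN (25.7% and 32.2%) and GPX4 (24.7% and 25.2%). The median of the 5500 genes was 38.7% and 38.9%, so GPX4 and TXN lay below it, FTL and the peroxiredoxins above it, and FTH1 below it in both flasks. In SplitA a single cell in G1 held 193 UMIs of FTH1, 135 of FTL and 2 of NQO1 among 8071 nuclear UMIs. Without that cell the FTH1 index of SplitA was 3.17 and the FTL index 3.73. In SplitB the cell richest in FTL had 142 UMIs of FTL and 17 of FTH1, so high FTL did not always go with high FTH1.

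How the genes varied together over cells is given as Pearson's r of the deviations from the level of the flask, over the 899 and 1195 cells. The cells share 1 library and the same UMI totals enter both genes of a pair, so these values describe and were not tested. Of the 21 pairs of the 7 genes, 5 had an r of at least 0.1 in both flasks. They were PRDX1 with PRDX2 (0.23 in both flasks), FTL with FTH1 (0.39 in SplitA and 0.21 in SplitB), SOD1 with PRDX2 (0.19 and 0.24), FTH1 with GPX4 (0.19 and 0.20) and SOD1 with PRDX1 (0.13 and 0.14). The share of all gene pairs past this limit was not computed, so whether 5 of 21 is unusual for abundant genes is not known. GPX4 went with the heavy chain and not with FTL (0.07 and 0.06), the peroxiredoxins and SOD1 went together in each of their 3 pairs, and FTH1 and PRDX1 ran against each other (-0.13 and -0.12). Without the cell of SplitA named above, the r of FTL and FTH1 in SplitA was 0.25. Within cells under 10% mitochondrial UMIs, the r of PRDX1 and PRDX2 was 0.06 in SplitA and 0.20 in SplitB. It was thus far lower than over all cells in SplitA and slightly lower in SplitB. The r of SOD1 in these cells was 0.08 and 0.12 with PRDX1 and 0.14 and 0.22 with PRDX2. The r of FTH1 and PRDX1 in these cells was 0.05 and -0.03.

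Among the other 685 genes with an average of at least 1 UMI per cell, those most like FTH1 (by the lower r of the 2 flasks) were LGALS1 (0.39 and 0.44), SH3BGRL3 (0.35 and 0.36) and TMSB10 (0.31 and 0.37). FTL was like TPT1 (0.27 and 0.26) and RPL15 (0.24 in both), the latter a ribosomal protein gene. PRDX1 was most like HSP90AA1 (0.47 and 0.40), TUBA1A (0.44 and 0.32) and ACTB (0.41 and 0.31), and PRDX2 most like CFL1 (0.35 and 0.30), STMN1 (0.27 and 0.26) and PSMA7 (0.33 and 0.26). SOD1 was also most like CFL1 (0.24 and 0.26), then GSTP1 (0.21 in both) and CALM2 (0.24 and 0.21). TXN and GPX4 had weaker partners, DBI (0.17 and 0.20), NDUFB2 (0.18 and 0.16) and HMGB1 (0.14 in both) for TXN, and FTH1 itself, LSM4 (0.16 and 0.15) and GUK1 (0.14 and 0.15) for GPX4.

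The mitochondrial share of a cell is the percent of its UMIs on the 13 mitochondrial genes, and is used as a mark of cells that lose cytoplasmic RNA. All singlets were placed in 4 classes, under 10% (680 cells of SplitA and 915 of SplitB), 10 to 15% (167 and 215), 15 to 30% (139 and 128) and 30% or more (193 and 347). In cells of 30% or more the genes split: FTL, FTH1 and GPX4 were far lower and TXN moderately lower, PRDX1 was far higher, and PRDX2 and SOD1 rose by about as much as the median gene. The classes also differ in depth, with median UMIs per cell of 6175 and 6432 under 10% against 1511 and 1468 at 30% or more, and depth and mitochondrial share cannot be told apart in most of these cells. The UMIs of each class were summed per flask and compared with edgeR's quasi-likelihood test with flask as a block. The p-values were adjusted by Benjamini-Hochberg over all genes. They set the change between classes against a spread estimated from all 8 sums and shared in part across genes. They do not measure how evenly a single gene ran in the 2 flasks, and both flasks come from 1 library.

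FTL fell from 2635 CPM under 10% to 633 (525 to 756) at 30% or more in SplitA and from 2594 to 661 (577 to 755) in SplitB. The intervals of the classes lay far apart in both flasks, and FTL fell 4.03-fold, or by 2.01 ± 0.12 (SE) on the log2 scale (edgeR adjusted p = 2.3e-22). FTH1 fell from 3819 to 957 (824 to 1107) and from 3725 to 1245 (1128 to 1371), which is 3.40-fold, or by 1.76 ± 0.12 on the log2 scale (edgeR adjusted p = 1.2e-19). GPX4 fell from 533 to 152 (102 to 218) and from 547 to 150 (111 to 197), 3.62-fold or by 1.86 ± 0.16 on the log2 scale (edgeR adjusted p = 2.4e-15). GPX4 thus fell by about as much as the ferritin chains. A fall of this size was not particular to these genes. In the same comparison 79 ribosomal protein genes, of the list described below, had a median log2 change of -1.64 (from -2.52 to 0.31). In SplitA the ratio of FTH1 to FTL was 1.45 (1.41 to 1.49) under 10% and 1.51 (1.196 to 1.92) at 30% or more, and in SplitB it was 1.44 (1.41 to 1.47) and 1.88 (1.60 to 2.23), so the light chain was the more reduced beyond counting error in 1 flask only.

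TXN was at 374 and 400 CPM under 10% and at 262 (194 to 345) and 281 (227 to 344) at 30% or more in SplitA and SplitB. It was lower in both flasks and fell by 0.51 ± 0.14 on the log2 scale (edgeR adjusted p = 0.0011). This call was lost where only cells with at least 1000 genes (edgeR adjusted p = 0.099) or only cells of 1000 to 3000 UMIs (edgeR adjusted p = 0.14) were compared, with log2 changes of -0.58 and -0.59.

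PRDX1 rose from 168 to 638 CPM (530 to 762) in SplitA and from 175 to 560 (482 to 646) in SplitB. The classes did not overlap, and PRDX1 rose 3.44-fold, with a log2 change of 1.78 ± 0.12 (edgeR adjusted p = 6.8e-20). PRDX2 rose from 326 to 759 (640 to 893) and from 332 to 602 (521 to 691), a log2 change of 1.02 ± 0.12 (edgeR adjusted p = 3.5e-11), and SOD1 from 358 to 785 (664 to 921) and from 353 to 640 (558 to 732), a log2 change of 0.98 ± 0.12 (edgeR adjusted p = 6.6e-11). On this scale the median of all 8660 genes tested also rose, by 0.88. Relative to that median PRDX1 was higher by 0.90 on the log2 scale, PRDX2 by 0.14 and SOD1 by 0.10, while FTL was at -2.89, GPX4 at -2.74, FTH1 at -2.65 and TXN at -1.40.

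Of the 8 genes tested, 3 were called up, against 50.6% of 8660 genes, and 4 were called down, against 11.3%. GCLM was not called (log2 change 0.54 ± 0.75, edgeR adjusted p = 0.54) with 0 and 5 UMIs at 30% or more, and NQO1 and HMOX1, with 1 and 3 and with 0 and 1 UMIs there, did not pass the filter on low counts. The up and down calls depended on the scaling. With TMM factors, which centre the bulk of genes, the median change was 0.11, 24.6% of genes were called up and 24.3% down (2134 and 2102 genes, against 4378 and 976 with nuclear totals, 2622 and 1836 with all UMIs as the library size and 1203 and 1622 with DESeq2), and of the 10 genes only PRDX1 (1.00 ± 0.12) was called up. PRDX2 (0.24, edgeR adjusted p = 0.073) and SOD1 (0.21, edgeR adjusted p = 0.13) were not. FTL (-2.79), GPX4 (-2.64), FTH1 (-2.55) and TXN (-1.29) were called down under either scaling.

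**Figure D3:**
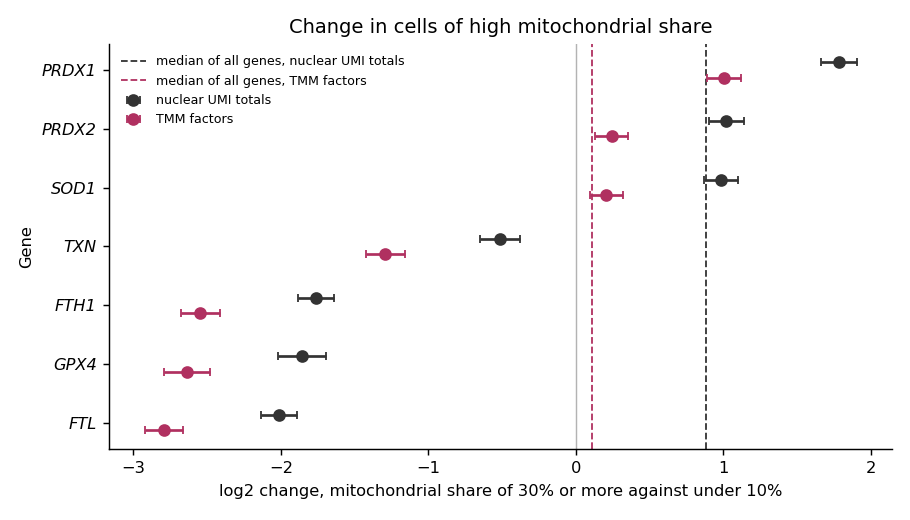
The log2 change from cells under 10% to cells of 30% or more mitochondrial UMIs for the 7 abundant genes, from edgeR with flask as a block; points are estimates and bars 1 SE, in black with nuclear UMI totals and in red with TMM factors, and dashed lines are the median of all genes on each scale. FTL, GPX4, FTH1 and TXN lie left of 0 and of both medians, SOD1 and PRDX2 lie close to the median of either scale, and PRDX1 lies about 0.9 to the right of it.

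The same cells were also unlike the rest in their other RNA. The 81 ribosomal protein genes, a list made after values had been seen, held 40.9% of nuclear UMIs under 10% and 13.9% at 30% or more in SplitA, and 40.7% and 13.8% in SplitB. MALAT1, a long RNA kept in the nucleus, went from 15097 to 45575 CPM and from 14537 to 46855, NEAT1, another nuclear RNA, from 262 to 1104 and from 276 to 1074, and GAPDH, a cytosolic enzyme of glycolysis, from 2424 to 5822 and from 2554 to 5073. The part of depth and of the loss of ribosomal protein mRNA in the changes of the 10 genes was not tested beyond the alternatives named. In cells of 1000 to 3000 UMIs, of which only 14 and 27 lay under 10%, FTL (-1.94), GPX4 (-1.94) and FTH1 (-1.67) were still called down, whereas PRDX1 (0.34, edgeR adjusted p = 0.33), PRDX2 (0.22) and SOD1 (0.49) were not called against a median of 0.63. At this depth the value of PRDX1 lay below that of the median gene. That median is over 2186 genes tested, against 8660 with cells of all depths. The cells under 10% at this depth had a lower mitochondrial share than their class. Nuclear UMIs were 32357 of 33671 in SplitA and 52678 of 55841 in SplitB, against 4150275 of 4511637 and 5710215 of 6210804 in the whole class. In cells under 5%, which were shallow too, PRDX1 was at 248 and 518 CPM. The part of these reference cells in the lost calls was not tested.

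In cells of 15 to 30% the genes had already moved. FTL was at 942 and 1124 CPM, with a log2 change of -1.34 ± 0.11 (edgeR adjusted p = 1.6e-15), FTH1 at 1541 and 2169 (-1.03 ± 0.11, edgeR adjusted p = 3.3e-11) and GPX4 at 215 and 316 (-1.02 ± 0.15, edgeR adjusted p = 3.9e-08). PRDX1 was at 613 and 472 (1.64 ± 0.13, edgeR adjusted p = 9.7e-17), PRDX2 at 796 and 611 (1.09 ± 0.12) and SOD1 at 759 and 558 (0.88 ± 0.12). Of the 8 genes tested, 3 were called up, against 36.8% of 8660 genes, and 3 down, against 6.62%, with a median of all genes of 0.67. Over all genes the 3185 up and 573 down calls of this class became 1294 and 1583 with TMM factors, 2295 and 907 with all UMIs as the library size and 778 and 1057 with DESeq2. TXN (-0.28, edgeR adjusted p = 0.095) was not called on this scale but was with TMM factors (-0.93, edgeR adjusted p = 7.1e-08). SOD1 lost its call with TMM factors (0.22, edgeR adjusted p = 0.14). In cells of 10 to 15%, whose depth was like that of cells under 10%, 0 of the 8 genes were called, against 0.104% of 8660 genes. PRDX2 came closest, at 247 and 245 CPM (log2 change -0.42 ± 0.10, edgeR adjusted p = 0.056), and with TMM factors it was called down (-0.52, edgeR adjusted p = 0.0071). At an unadjusted p under 0.05, 3 of the 8 genes passed in this contrast (PRDX1, PRDX2 and TXN), of 996 genes in all.

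The share of cells with a UMI was compared after each cell was thinned to 500 nuclear UMIs, which left out no cell under 10% and, at 30% or more, 15 of SplitA and 51 of SplitB. A UMI of FTL was then found in 69.5% and 69.1% of cells under 10% and in 27.6% and 26.7% at 30% or more, against 99.6% and 98.9% and 43.0% and 41.5% without thinning. GPX4 went from 23.4% and 23.8% to 8.26% and 8.63%, and FTH1 from 83.6% and 82.5% to 39.3% and 45.3%. PRDX1 went the other way, from 8.53% and 9.17% to 25.7% and 22.2%, although without thinning its share was lower at 30% or more (42.5% and 36.0%) than under 10% (62.1% and 60.9%). The levels of the ferritin chains and PRDX1 thus changed over many cells and not in a few rich ones.

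In finer steps under 10%, among cells of like depth, the level of PRDX2 ran the other way. From cells of 5 to 6% to cells of 9 to 10%, PRDX2 went from 504 CPM (415 to 607) to 265 (234 to 299) in SplitA and from 463 (382 to 556) to 266 (242 to 292) in SplitB, with lower values at each step between. PRDX1 went from 203 (148 to 271) to 128 (107 to 152) and from 219 (165 to 286) to 151 (133 to 171), with intervals that overlapped. The median depth of these cells was 6047 and 6244 UMIs at 5 to 6% and 6791 and 6778 at 9 to 10%. FTH1 had higher values at the larger share, from 3158 (2928 to 3400) to 3910 (3788 to 4035) in SplitA and from 3572 (3339 to 3816) to 3718 (3627 to 3812) in SplitB, with intervals that overlapped in SplitB. FTL likewise went from 2360 (2162 to 2571) to 2824 (2721 to 2931) in SplitA and from 2519 (2325 to 2726) to 2710 (2632 to 2790) in SplitB, with overlap in SplitB. SOD1 went from 369 (294 to 459) to 310.5 (277 to 347) in SplitA, with overlap, and from 439 (360 to 530) to 315 (288 to 343) in SplitB, without. The 23 cells of SplitA and 41 of SplitB under 5% were shallower, with medians of 2648 and 2447 UMIs, and are given apart. In them PRDX1 was at 248 (152 to 384) and 518 (409 to 646) and PRDX2 at 596 (440 to 791) and 438 (339 to 557). FTL was at 3031 and 3206 in the same cells. All these steps lie within 1 class and were not tested.

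**Figure D4:**
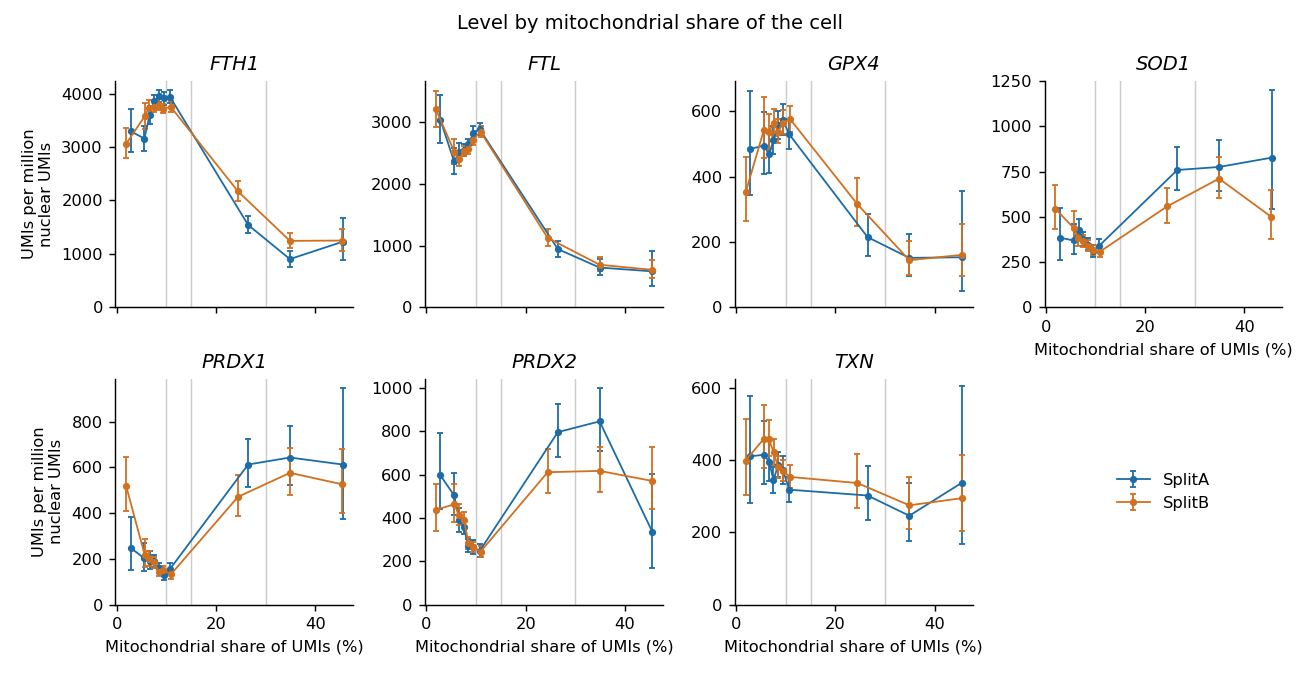
Level in CPM against the mitochondrial share of UMIs in percent, for the 7 abundant genes in SplitA and SplitB; points are cells pooled in 10 steps of the share (at least 23 cells each), placed at their median share, with exact 95% Poisson intervals, and grey lines mark 10, 15 and 30%. FTH1, FTL and GPX4 drop between 15 and 30% and stay low, PRDX1, PRDX2 and SOD1 dip toward 10% and rise above 15%, and TXN changes least.

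Counts for the rest of the pathways at 30% or more are to be read against the 50.6% of all genes called up and 11.3% called down (24.6% and 24.3% with TMM factors). Of 12 genes of glutathione synthesis, reduction and transfer, 9 were tested at 30% or more, of which 8 were called up and 0 down, with a median log2 change of 1.33 against 0.88 for all genes; with TMM factors 4 were called up and 0 down. SLC3A2, a chain of the cystine importer, rose from 16.1 to 220 CPM in SplitA and from 18.0 to 218 in SplitB (3.66 ± 0.21, edgeR adjusted p = 6.2e-23) and GSS, glutathione synthetase, by 2.41 ± 0.32 on the log2 scale. Of 14 further genes of the thioredoxin, peroxiredoxin and glutaredoxin system, 13 were tested, 7 called up and 2 down, at a median of 0.83 (3 up and 4 down with TMM factors), which is near the shares of all genes. TXNRD2 (2.53 ± 0.39), a mitochondrial thioredoxin reductase, and PRDX4 (1.95 ± 0.18), a peroxiredoxin of the endoplasmic reticulum, rose, and GLRX5 (-1.36 ± 0.21) and TXN2 (-0.75 ± 0.20), both mitochondrial, fell.

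Of 15 genes of iron uptake, storage and export, 13 were tested, 8 called up and 1 down, at a median of 1.22 (3 up and 3 down with TMM factors), also near the shares of all genes. ACO1, the iron regulatory protein that doubles as cytosolic aconitase (1.98 ± 0.62, not called with TMM factors, edgeR adjusted p = 0.075), and SLC11A2, an iron importer (1.80 ± 0.41), rose, while ISCU, the scaffold of iron-sulphur clusters, fell by 1.86 ± 0.31 on the log2 scale. At 15 to 30% the largest rises in this list were those of BLVRA (1.85 ± 0.26), which reduces biliverdin, and TFRC (1.35 ± 0.29), the transferrin receptor. Of 13 genes of NRF2 control and other NRF2 targets, 11 were tested, 9 called up and 0 down, at a median of 1.69 (4 up and 1 down with TMM factors), led by TALDO1 (1.98 ± 0.19) and ME1 (1.89 ± 0.56, not called with TMM factors, edgeR adjusted p = 0.074). Of 7 other superoxide and peroxide enzymes, 4 were tested, with CAT (2.62 ± 0.44) and CCS (2.07 ± 0.39), catalase and the copper chaperone of SOD1, called up and MSRB1 (-1.76 ± 0.47) down (2 up and 2 down with TMM factors). Of 6 references of damage and stress, 4 were called up and 0 down, at a median of 1.38 (4 up and 1 down with TMM factors), and HSPA1A, the inducible heat shock protein, rose by the most (3.77 ± 0.36, from 13 and 26 UMIs at 30% or more). This list also holds MALAT1, NEAT1 and GAPDH, so its count is not one of stress genes alone. Its other members are ATF4 and DDIT3. DDIT3 went from 11.6 to 20.9 CPM in SplitA and from 15.1 to 5.99 in SplitB, with 4 and 2 UMIs at 30% or more. Few UMIs were also counted there for ACO1 (3 in SplitA and 6 in SplitB), SLC11A2 (11 and 10), ISCU (7 and 7) and ME1 (5 and 7). The same holds for CAT (4 and 17), CCS (7 and 18) and MSRB1 (0 and 7), so the sizes of these changes are uncertain.

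Cells kept were also assigned to a phase of the cell cycle from the expression of published S and G2M genes, 379 and 508 to G1, 268 and 344 to S and 252 and 343 to G2M. The light chain of ferritin followed the phase closely. FTL was at 3227 CPM (3152 to 3303) in G1, 2495 (2415 to 2578) in S and 1972 (1906 to 2041) in G2M in SplitA, and at 3146 (3084 to 3210), 2486 (2417 to 2555) and 1919 (1862 to 1977) in SplitB. The intervals of the 3 phases did not overlap and those of the flasks did. FTL fell by 0.71 ± 0.02 on the log2 scale in G2M against G1 (1.64-fold, edgeR adjusted p = 2.0e-24) and by 0.35 ± 0.02 in S (edgeR adjusted p = 7.1e-15).

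FTH1 moved far less, from 4039 in G1 to 3781 in S and 3425 in G2M in SplitA and from 3912 to 3634 and 3388 in SplitB. It fell by 0.22 ± 0.02 on the log2 scale in G2M (edgeR adjusted p = 9.0e-11) and by 0.10 ± 0.02 in S (edgeR adjusted p = 5.6e-04). The ratio of FTH1 to FTL therefore went from 1.25 (1.21 to 1.29) in G1 through 1.52 (1.45 to 1.58) to 1.74 (1.66 to 1.81) in G2M in SplitA and from 1.24 (1.21 to 1.28) through 1.46 (1.41 to 1.52) to 1.77 (1.70 to 1.83) in SplitB. Phases differed little in mitochondrial share (medians of 8.43 to 8.95%), and G2M cells were deeper, with 7069 and 6960 UMIs against 5827 and 6110 in G1. Ribosomal protein genes held 42.0% and 41.8% of nuclear UMIs in G1 and 38.2% and 38.1% in G2M.

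Of the 9 genes tested in G2M against G1, 4 were called down, against 9.67% of 10637 genes, and 0 up, against 21.1%, at a median of all genes of 0.16; with TMM factors the calls over all genes were 1562 up and 1550 down, against 2248 and 1029. Besides the ferritin chains these were PRDX1, at 187 and 193 CPM in G1 and 163 and 154 in G2M (-0.27 ± 0.08, edgeR adjusted p = 0.0068), and SOD1, at 375 and 366 in G1 and 330 and 326 in G2M (-0.18 ± 0.05, edgeR adjusted p = 0.013). In S, 2 genes were called down (FTL and FTH1), against 5.83% of 10637 genes, and 2 up, against 13.9%. PRDX2 was at 368 and 362 CPM in S against 311 and 314 in G1 (0.22 ± 0.06, edgeR adjusted p = 0.0044) and TXN at 398 and 394 against 337 and 369 (0.16 ± 0.06, edgeR adjusted p = 0.042). Both calls were lost with TMM factors (edgeR adjusted p = 0.15 for PRDX2 and 0.53 for TXN), under which the 1475 up and 620 down calls of S became 1053 and 960. With TMM factors PRDX2 was also called down in G2M (-0.20, edgeR adjusted p = 0.0071, against -0.07 ± 0.06 and no call). GPX4 was not called in S (0.07 ± 0.05) or in G2M (0.04 ± 0.05), nor were NQO1 (-0.82 ± 0.48 in G2M) and GCLM (0.12 ± 0.42 in G2M), and HMOX1, with 0 UMIs in S cells of both flasks, was not tested.

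**Figure D5:**
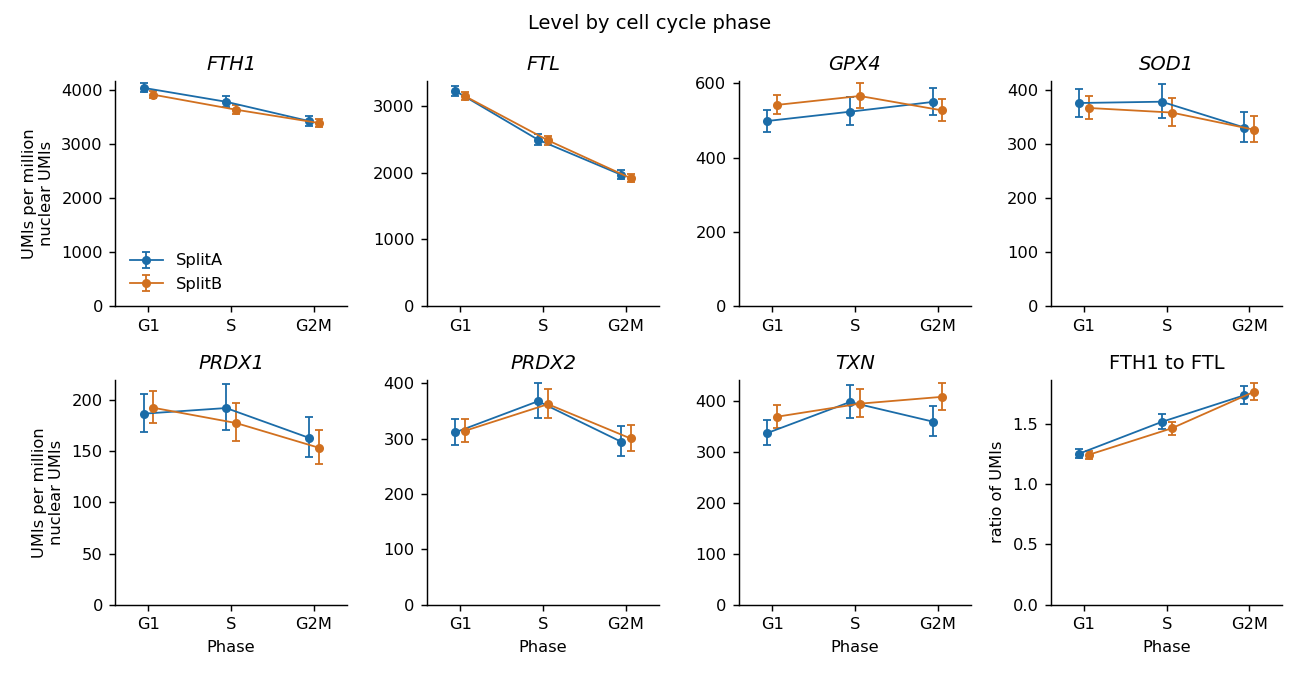
Level in CPM in G1, S and G2M cells of SplitA and SplitB for the 7 abundant genes, and the ratio of FTH1 to FTL UMIs (lower right), with exact 95% intervals. FTL steps down from 3227 and 3146 in G1 to 1972 and 1919 in G2M while FTH1 goes from 4039 and 3912 to 3425 and 3388, so the ratio climbs from 1.25 and 1.24 to 1.74 and 1.77.

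For the pathway lists the shares of all genes called were 13.9% up and 5.83% down in S and 21.1% up and 9.67% down in G2M. In G2M against G1 the thioredoxin, peroxiredoxin and glutaredoxin system had 3 of 13 genes called up and 2 down (3 up and 5 down with TMM factors), near those shares, with TXNRD1 (1.16 ± 0.21), the cytosolic reductase of TXN, and GLRX5 (0.49 ± 0.07) upward and PRDX5 (-0.34 ± 0.05) and PRDX6 (-0.30 ± 0.08) downward. TXNRD1 was called up in S as well (1.07 ± 0.22), with PRDX3 (0.40 ± 0.13), while TXN2 (-0.24 ± 0.08) and PRDX5 (-0.17 ± 0.05) were called down. The iron list had 3 of 13 genes called up and 3 down in G2M, TFRC (0.47 ± 0.17) and IREB2 (0.44 ± 0.16), the second iron regulatory protein, upward, and BLVRB (-1.19 ± 0.27) and HMOX2 (-0.69 ± 0.25), the constitutive heme oxygenase, downward, and in S it had TFRC (0.75 ± 0.16), PCBP1 (0.27 ± 0.08) and BLVRB (-1.04 ± 0.27). With TMM factors TFRC was called in S but not in G2M, and IREB2, PCBP1 and PRDX3 (in S) were not called. In the glutathione list 0 of 10 genes were called in S, and 0 up and 2 down (GSTK1, -0.78 ± 0.14, and GSTM3, -0.53 ± 0.14) in G2M, while with TMM factors 1 was called down in S and 5 in G2M. In the NRF2 list 1 of 13 genes was called up in S (AKR1B1, 0.45 ± 0.08), and 3 up and 2 down in G2M, with CUL3 (0.95 ± 0.20), KEAP1 (0.53 ± 0.17, not called with TMM factors), TKT (-0.37 ± 0.13) and SQSTM1 (-0.36 ± 0.12) among them (with TMM factors 1 up and 1 down in S, and 1 up and 2 down in G2M). Of the other superoxide and peroxide enzymes, MSRB1 was called down in S (-0.49 ± 0.16) and PARK7 in G2M (-0.30 ± 0.07), and with TMM factors 2 of the 6 tested were called down in each. Of the 6 references of damage and stress, 0 were called up and 4 down in each of S and G2M under either scaling, led by DDIT3 (-0.96 ± 0.28 in S and -1.47 ± 0.29 in G2M), and GAPDH in S (-0.27 ± 0.03) and NEAT1 in G2M (-0.51 ± 0.06).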

How the data were processed

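The authors aligned the reads to GRCh38 with Cell Ranger 4.0.0 (STAR 2.7) and deposited UMI counts, without normalization, of 33538 genes and 2 hashtags in 2879 cells of 1 library. Which annotation release they counted on is not given in the sources used here, and gene positions are those of GENCODE release 44. The table of the hashtag antibodies was not used. Of 56 pseudogenes that GENCODE names after FTL, FTH1, SOD1, PRDX1, PRDX2 and TXN, 0 have a row in the count table, so the fate of reads that match a gene and such a copy alike is not known and the levels of these genes are uncertain to that extent.

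Ensembl identifiers were matched to symbols with a reference table. As in the supplementary code, a cell belonged to a flask if its hashtag had at least 3 times the counts of the other and the other had at most 185. SplitA and SplitB are replicates 1 and 2, and cells are not replicates. After this assignment the cells with at least 1000 genes held 5312422 and 7305543 nuclear UMIs, with medians of 6063 and 6346 UMIs per cell. Of 10 markers of this cell line all were found, with summed levels of 3567 and 3450 CPM (TH at 1.69 and 1.23), while the 16 markers of fibroblast, immune, erythroid and epithelial cells summed to 8.09 and 11.0, 0 and 0, 0 and 0.137 and 2.45 and 2.19. Nothing was done about doublets within a flask.

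Levels have exact 95% Poisson intervals, shares exact binomial (Clopper-Pearson) ones. Counts summed per flask and mitochondrial class (8 sums) or phase (6 sums) were compared with edgeR 4.0.16 (glmQLFit and glmQLFTest, flask as a block, nuclear UMIs as library size, filterByExpr, adjusted p limit of 0.05). The sums of 1 flask come from the same culture, which is why flask is a block. The SE given with each edgeR change is the absolute log2 change divided by the square root of the F statistic of its test. Phases came from Seurat 5.3.0 (42 S and 52 G2M genes found), in R 4.3.3. DESeq2 1.42.0 was an alternative, and the rest used Python 3.11.15 with pandas 2.3.3, scipy 1.17.1, numpy 2.4.6 and matplotlib 3.10.9. The fit and the spread index were tested on simulated counts. For the fit, all classes shared the same profile apart from a small set of changed genes. That setting lacks the broad shift between mitochondrial classes, so it cannot decide between the scalings. The genes and the 6 pathway lists were chosen with earlier results of these data known. Besides the 10 genes, the text names up to 2 called genes in each direction per list and comparison with the largest change, the 3 genes most like each abundant gene (1 of those for FTL is not reported here), MALAT1, NEAT1 and GAPDH. Alternatives concerned the denominator, the scaling, the filters, depth, the hashtag limits, the cycle genes, the block and leaving out a flask, and leaving out 1 cell was added after the data were seen.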

Additional observations from a re-analysis of the deposited data

How the results depend on the processing

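The rises depended on the scaling, as did fewer of the falls. Called up at 30% or more, 3 genes became 1 with DESeq2 size factors, 1 with TMM factors and 0 in cells of 1000 to 3000 UMIs, and at 15 to 30% 3 became 1 with DESeq2 and 0 in cells of 1000 to 3000 UMIs. The genes called down in these classes numbered 3 or 4 under each alternative run, where TXN made the difference. In S the 2 genes called up became 0 with DESeq2 and TMM factors and 1 without a filter on low counts, with no replicate block or with the updated cycle genes; TXN was the call lost in the last 3 (edgeR adjusted p from 0.052 to 0.13). The block changed no other call of these genes. The summed level of the 10 genes, 8113 CPM, was 7356 with all UMIs as denominator and 7953 in all singlets, and without 1 flask lay between 8062 and 8164. The spread index passed 1.2 in both flasks for 5 genes, for 3 after thinning to 2000 nuclear UMIs (which left out 39 and 56 cells), and for 6 in either flask alone. Pairs with an r of at least 0.1 were 5, and 6 to 7 in a single flask. With 1 flask left out no residual degrees of freedom remain for the class and phase tests, and only the log2 changes of each flask were computed. No called change turned its sign under any alternative. Depth limits NQO1, HMOX1 and GCLM, whose changes could not be detected, and the sums of cells of 30% or more, which hold 191158 and 334136 nuclear UMIs against 4150275 and 5710215 under 10%. Over all genes, DESeq2 called 380 up and 267 down in S and 487 and 542 in G2M, against 1475 and 620 and 2248 and 1029 with edgeR. In cells of 10 to 15% edgeR called 9 genes (6 up and 3 down), 5 up and 69 down with TMM factors and 40 up and 24 down with no replicate block, and DESeq2 called 0 (122 at an unadjusted p under 0.05).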

Other observations

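Of the cells that hashtag counts assigned to neither flask, left out above, 73 had at least 1000 genes. Their median was 7636 UMIs per cell. FTH1 was at 3410 CPM (95% Poisson interval 3252 to 3573), FTL at 2825 (2682 to 2974), GPX4 at 525 (464 to 591), TXN at 380 (328 to 437), SOD1 at 308 (262 to 360), PRDX2 at 248 (207 to 295) and PRDX1 at 139 (109 to 176). GCLM had 10 UMIs (19.4 CPM, 9.29 to 35.6), NQO1 2 and HMOX1 0, which allows up to 3 counts. The intervals of FTL and GCLM lay above those of both flasks and the intervals of FTH1 and PRDX2 below them, and no test was made.

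Of the singlets, 332 of SplitA (28.2%) and 475 of SplitB (29.6%) had a mitochondrial share of 15% or more. With the limits of the supplementary code, which finds 9 of the 13 mitochondrial genes by name and asks for at least 1000 genes, 67 and 89 of these cells remained.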
